A study of Mus musculus with 13 samples.

Results

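The genes described here encode the proteins of the cytosolic ribosome. They were taken by symbol: Rpl or Rps followed by digits, with an optional a or x, together with Rplp0, Rplp1, Rplp2, Rpsa and Rps3a1. Pseudogene rows ending in -ps were left out. Of the 23211 genes counted, 77 met this rule, 31 of the small subunit and 46 of the large subunit. RNA was sequenced from 13 libraries of mouse cells that the submitters describe as lineage-negative and positive for the leptin receptor, a surface marker of marrow stromal cells. The cells were sorted by flow cytometry from tissue around implants placed in the tibia. Bone around an implant named Pressfit gave 6 libraries, and fibrous tissue around an implant named PMMA gave 7. The labels name no strain, genotype, age, time after surgery or pooling of animals, and no agent other than the implant is named for either group.

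Library names divide both groups further. The series with L002 in its names held 9 libraries (bone 1 to 4 and fibrous 1 to 5). The series with XY.9274 in its names, written XY9274 here, held 4 (bone 5 and 6, fibrous 6 and 7). Within L002, the names of bone 3, bone 4 and fibrous 5 held the token Lin, those of bone 1, bone 2 and fibrous 2 to 4 held the token plus, and that of fibrous 1 held neither. In 4 of the 5 names with plus, all but that of bone 1, the token read LepR.plus. All 4 XY9274 names held Lepr.Pos, so comparing the series also compares that token with the mix of tokens in L002. The labels do not say what Lin stands for or whether libraries came from separate animals. All p-values are thus relative to the variation among libraries alone, part of which may be technical.

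A ribosome reads messenger RNA on its small subunit and joins amino acids on its large subunit. Each protein is present in a single copy per ribosome, apart from the acidic stalk proteins, and surplus protein is degraded. The messenger RNAs of these genes share a terminal oligopyrimidine tract, a run of C and T bases at the 5′ end that begins with C. Through this tract the mTOR pathway and the RNA-binding protein Larp1 set how strongly they are translated. In marrow, erythroid precursors are known for a particular sensitivity to loss of single ribosomal proteins, as in Diamond-Blackfan anaemia.

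That run of C and T bases is the sequence feature that the rule for choosing the genes did not use. RefSeq promoter windows (build GRCm38.p6) were found for 57 of the 77 genes. A run of at least 8 pyrimidines starting with C, on the transcribed strand and within 50 bases of the annotated start on either side, was present in 48 of them, or 84.2%. The same was present in 32.0% of 27025 genes with a window. Shown here are 65 bases, from 40 before to 25 after the annotated start, for 8 genes described in the results. The first 6 were chosen for a run of 10 or more bases, and the last 2 show windows without one of 8. They are Rps6 (chr4:86857343-86857407 on the minus strand), Rpl4 (chr9:64173347-64173411 on the plus strand), Rps25 (chr9:44407674-44407738 on the plus strand), Rps12 (chr10:23787185-23787249 on the minus strand), Rpl34 (chr3:130730313-130730377 on the minus strand, the downstream of its annotated starts), Rpl15 (chr14:18270962-18271026 on the minus strand), Rpl37a (chr1:72711220-72711284 on the plus strand) and Rplp0 (chr5:115559427-115559491 on the plus strand). Capitals mark the longest pyrimidine run starting with C in each printed window, written 5′ to 3′.
Rps6: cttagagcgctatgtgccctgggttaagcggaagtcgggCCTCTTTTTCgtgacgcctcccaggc
Rpl4: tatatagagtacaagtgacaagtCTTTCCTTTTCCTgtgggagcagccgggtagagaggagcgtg
Rps25: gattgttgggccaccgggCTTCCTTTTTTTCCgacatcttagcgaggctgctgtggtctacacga
Rps12: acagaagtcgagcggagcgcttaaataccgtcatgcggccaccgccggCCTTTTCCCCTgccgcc
Rpl34: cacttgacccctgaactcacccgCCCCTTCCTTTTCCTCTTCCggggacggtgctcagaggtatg
Rpl15: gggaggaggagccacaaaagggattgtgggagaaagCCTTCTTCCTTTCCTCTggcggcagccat
Rpl37a: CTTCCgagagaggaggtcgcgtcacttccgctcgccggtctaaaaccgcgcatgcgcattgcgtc
Rplp0: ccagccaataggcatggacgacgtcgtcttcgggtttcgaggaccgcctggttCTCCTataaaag

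The marked runs were 10 bases long in Rps6, 13 in Rpl4, 14 in Rps25, 11 in Rps12, 20 in Rpl34 and 17 in Rpl15. Those of Rpl37a, Rplp0 and Rps3 were 5 bases long, those of Rps13 and Rps2 6, and that of the upstream start of Rpl34 8. In the first 6 genes shown the runs began between 22 bases before and 9 bases after the annotated start, so the annotated start and the start of the run did not coincide in every gene. Other motifs were searched on both strands from 250 bases before to 50 after the start. CCGGAAG, a form of the site that ETS-family factors bind, was present in 42.1% of the windows of these genes and in 9.93% of all genes. AAGATGG, a core of the YY1 site, was present in 15.8% against 7.28%. The pyrimidine word CTTTCC, which can lie inside the runs, was present in 50.9% against 29.3%. TATAAA, the TATA box, was present in 10.5% against 15.7%. These are matches of letters and show no binding.

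Totals ran from 16162321 to 44302166 counts per library, and between 14644 and 20146 genes were detected. Lepr, the gene of the sort marker, was low as RNA in 5 libraries, although the label describes cells sorted as positive for the receptor. It lay at 0.644, 0.602 and 2.42 CPM in bone 3 to 5 and at 0.469 and 0.739 CPM in fibrous 1 and 5, against 46.7 to 804 CPM in the other 8. CPM are counts divided by the library size, as scaled by a trimmed mean of M-values (TMM) factor. The 5 low libraries include all 3 with Lin in their name, so each comparison is given with and without them, except that between the name tokens, which needs them. Haemoglobin genes took 27.9, 35.3 and 19.98% of the counts in bone 3, bone 4 and fibrous 5, 11.9% in fibrous 1 and 0.129 to 7.48% in the other libraries. Neutrophil markers took 11.4% in bone 5 and 0.0730 to 4.42% elsewhere. In such bulk libraries, fewer cells of a type and less RNA per cell cannot be told apart.

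The ribosomal protein genes together took 1.38 to 3.53% of a library's counts. In bone 1 to 6 the share was 1.99, 3.15, 3.53, 3.09, 1.38 and 2.64%, a mean of 2.63 ± 0.809% (SD, n = 6). In fibrous 1 to 7 it was 1.88, 2.06, 2.25, 2.68, 2.86, 2.05 and 2.10%, a mean of 2.27 ± 0.364% (SD, n = 7). The ranges overlap, the fibrous range lies inside the bone range, and the spread within bone was the wider. Each of the 77 genes had at least 2 counts in every library, and only Rpl24 did not pass the filter on low counts in the comparisons as reported.

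**Figure D1:**
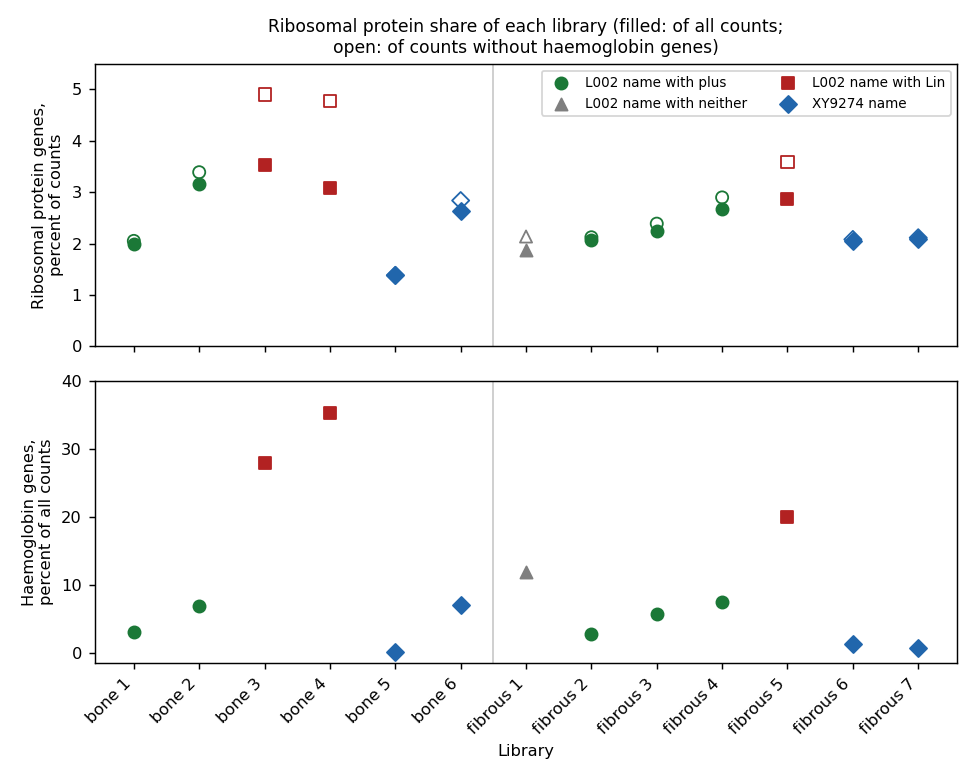
The upper panel plots the percent of each library's counts in the 77 ribosomal protein genes, as filled points, and the same percent with haemoglobin genes left out of the total, as open points. The lower panel plots the percent of counts in haemoglobin genes. Libraries run along the horizontal axis. The Lin-named libraries bone 3, bone 4 and fibrous 5 rise from 3.53, 3.09 and 2.86% to 4.90, 4.77 and 3.58% without haemoglobin. The open points of these libraries lie above all others, while the filled points of bone 4 and fibrous 5 lie below that of bone 2 (3.15%).

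By library name, the share averaged 3.16 ± 0.341% in the 3 Lin-named libraries, 2.43 ± 0.487% in the 5 plus-named libraries and 2.04 ± 0.514% in the 4 XY9274 libraries (SD). Leaving haemoglobin genes out of the total gave 4.90, 4.77 and 3.58% in bone 3, bone 4 and fibrous 5, against 1.38 to 3.39% in the other 10 libraries. On that measure the 3 Lin-named libraries stood above every other library, as the plot of shares by library shows. On all counts they did not, since bone 4 (3.09%) and fibrous 5 (2.86%) lay below bone 2 (3.15%). Leaving haemoglobin out raises a share most where haemoglobin is highest, as in these 3 libraries, so the direction of that change was fixed. Bone 5, with the most neutrophil RNA, held the lowest share on either measure.

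Single genes differed far more from each other than libraries did. Coordinates are those of GENCODE M21 on mm10. Rplp0 (ENSMUSG00000067274; chromosome 5, 115559467 to 115563727, plus strand), the base of the ribosomal stalk, held 5.90 ± 0.686% of the counts of all 77 genes (mean ± SD, n = 13). Rpl4 (ENSMUSG00000032399; chromosome 9, 64173375 to 64178666, plus strand), whose loop lines the peptide exit tunnel, held 5.04 ± 1.40%, and Rps3, at the messenger RNA entry of the small subunit, 4.01 ± 0.495%. At the other end, Rpl24 held 0.00119 ± 0.000891%, Rps10 0.00318 ± 0.00112%, Rpl23a 0.0786 ± 0.0145% and Rpl13a 0.0817 ± 0.0142%. These are shares of counts and not levels per length. Per kilobase of merged exons, Rplp0 lay at 6.21 times the level of the median ribosomal protein gene, Rplp1 at 4.88 and Rpl4 at 4.37 times. Per kilobase of coding sequence, Rplp0 lay at 2.79 times and Rpl41, the smallest of these proteins, was first at 6.52 times. Only 2 of the top 10 by exon length were also in the top 10 by coding length, so the order of levels depends on the length used.

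Shares of single genes varied unequally between libraries. The SD of the log2 share over 13 libraries was smallest for Rps3a1 (0.064), Rpl7 (0.078) and Rpl15 (0.083). Rps3a1 held 1.92 to 2.24% of the summed counts in every library. The SD was largest for Rpl24 (1.02) and Rps10 (0.58), both near the lower limit of counting, and for the abundant Rpl4 (0.49). Rpl4 ran from 2.23% in bone 4 to 7.04% in fibrous 1. The small subunit genes took 49.1, 48.7 and 46.1% of the summed counts in the 3 Lin-named libraries and 42.0 to 44.9% in the other 10. These groups do not overlap.

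The design text names a single comparison, fibrous tissue against bone. In it, every ribosomal protein gene tested had a lower fitted level in fibrous tissue, but none passed the test. Of 13294 genes tested by edgeR's quasi-likelihood test with Benjamini-Hochberg adjustment, 0 were called, 0% of those tested, and 0 of the 76 ribosomal protein genes tested. All 76 had log2 fold changes (fibrous minus bone) below 0, as did 48.1% of all genes tested. Their median was -0.49, against 0.026 for all genes. The median was -0.57 over the 31 small subunit genes and -0.44 over 45 large subunit genes. At an unadjusted p under 0.05 only Rps15a was lower by edgeR, 1 of 76, against 1.97% of all genes. That count was not stable. It was 23 by DESeq2, 30 by limma and 0 to 61 when single libraries were left out of the edgeR fit. The share of all genes at that cut was not obtained for these fits. After adjustment DESeq2 called 0 of the 76 and 169 of all genes (1.3%), and limma called 0 genes. No gene of the set was lower in every fibrous library than in every bone library, as 0.015% of all genes were.

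Rps15a (ENSMUSG00000008683; chromosome 7, 118104372 to 118116188, minus strand), a small subunit protein mutated in Diamond-Blackfan anaemia, ranged over 94.0 to 493 CPM (median 195) in bone and 117 to 239 CPM (median 131) in fibrous tissue. The highest bone values, 493 and 489 CPM, came from the Lin-named bone 3 and bone 4, and the groups overlap. Its log2 fold change was -0.76 (SE 0.34, adjusted p = 0.873). It was -0.19 without the 3 Lin-named libraries and -0.29 without the 5 low-Lepr libraries.

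Rplp0 ranged over 605 to 3195 CPM (median 1611) in bone and 841 to 2182 CPM (median 1181) in fibrous tissue. Both the lowest and the highest library were bone, and the fibrous values lie within them. The log2 fold changes of the P stalk genes were -0.49 for Rplp0, -0.57 for Rplp1 and -0.52 for Rplp2, the acidic proteins that recruit translation factors. Rpl5 and Rpl11, which carry 5S ribosomal RNA into the large subunit and bind Mdm2 when free, had -0.35 and -0.30. Rps13 and Rpl23, next after Rps15a in order of p, had -0.66 (SE 0.31) and -0.44 (SE 0.21), each with an adjusted p of 0.873. None of these genes passed the test.

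The remaining genes with well-known roles had values of the same sign and none passed the test. Rps6, the target of S6 kinase, had a log2 fold change of -0.41 and ranged over 168 to 543 CPM (median 358) in bone and 219 to 362 CPM (median 261) in fibrous tissue. Rps19, the most frequently mutated gene of Diamond-Blackfan anaemia, had -0.58. Rpsa, also known as the laminin receptor, had -0.58, and Rps27a, made as a fusion with ubiquitin, had -0.64. Rps2 and Rps3, at the entry of the messenger RNA channel, had -0.43 and -0.59, and the X-linked Rps4x had -0.23. In the large subunit, Rpl3 and Rpl10, both close to the peptidyl transferase centre, had -0.38 and -0.39. Rpl22, Rpl38 and Rpl13a had -0.56, -0.50 and -0.35. Rpl4 lay closest to 0, at -0.057.

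The size of this difference varied with the libraries included. Leaving out single libraries gave medians of the ribosomal protein genes from -0.63 to -0.38. Without the 3 Lin-named libraries the median of the ribosomal protein genes was -0.12, with 73 genes below 0 and 4 above. Without the 5 low-Lepr libraries, a choice made after seeing the data, it was -0.23, with 76 below and 1 above. Within the L002 series alone the median was -0.74, and -0.17 without its Lin-named libraries, a subset also chosen after seeing the data. Within the XY9274 series alone, with 2 libraries a group, it was -0.11, against -0.10 for all genes there. No gene of the set was called in any of these fits. Erythroid markers, 17 of 20 listed in the matrix, summed to 0.584 to 38.3% of the counts in bone and 2.24 to 23.2% in fibrous tissue, with none at 0 in all libraries. Neutrophil markers, 18 of 18, summed to 0.225 to 11.4% and 0.0730 to 3.18%. Their part in the difference was not tested.

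**Figure D2:**
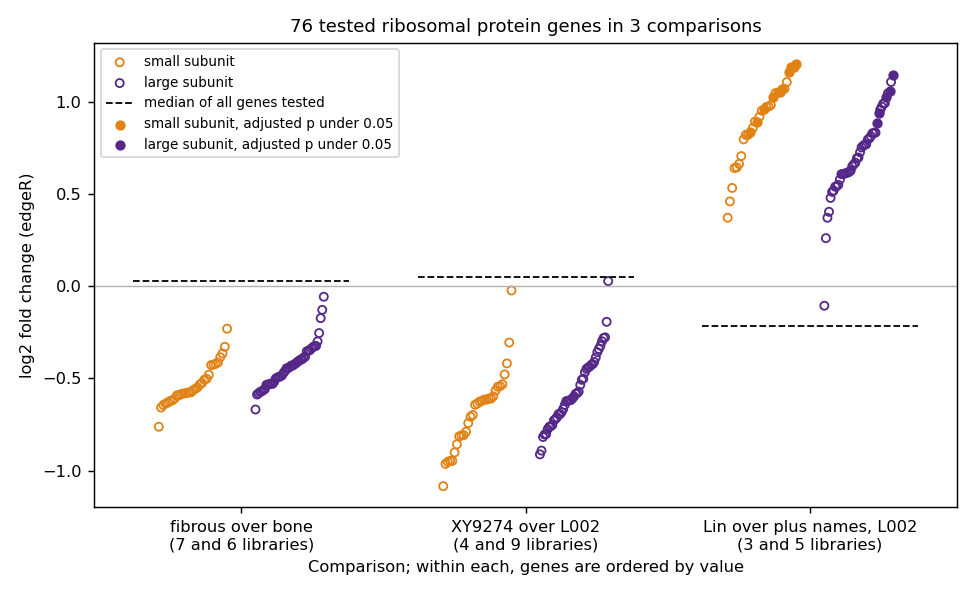
Log2 fold changes of the 76 tested ribosomal protein genes are plotted for fibrous against bone, XY9274 against L002, and Lin-named against plus-named libraries. Filled points have an adjusted p under 0.05 and the dashed line is the median of all genes tested. All points lie below 0 in the first comparison and none is filled, while 75 of 76 lie above 0 in the last and 16 are filled.

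Between the name series the ribosomal protein genes were fitted lower in XY9274 than in L002, again without a call by edgeR. Of the 76 genes tested, 75 had log2 fold changes (XY9274 minus L002) below 0, with a median of -0.62 against 0.052 for all genes, of which 47.8% lay below 0. Rpl37a alone lay above 0, at 0.027, and its sign turned under several scalings. The quasi-likelihood test of edgeR called 0 of the 76, against 0.271% of all genes called lower and 2.16% called in either direction. At an unadjusted p under 0.05, 32 of the 76 were lower, against 9.26% of all genes. DESeq2 called 14 of them lower and limma called 15, against 7.41 and 7.08% of all genes. No gene of the set separated the series without overlap, while 1.45% of all genes were lower in that way.

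The smallest p-values belonged to Rpl10, which joins the large subunit late in the cytoplasm, Rps2 and Rps14, whose loss is linked to the anaemia of the 5q- syndrome. Rpl10 measured 186, 277, 208 and 216 CPM in bone 5, bone 6, fibrous 6 and fibrous 7, against 243 to 637 CPM (median 326) in L002. Bone 5 was the lowest of the 4 and bone 6 lay within the L002 range. The fits gave Rpl10 a log2 fold change of -0.80 (SE 0.26, adjusted p = 0.120), Rps2 -0.95 (SE 0.32, adjusted p = 0.129) and Rps14 -1.08 (SE 0.39, adjusted p = 0.139). Rplp0 measured 605, 1554, 841 and 853 CPM in the same 4 libraries, against 1149.96 to 3195 CPM (median 1561) in L002, with a log2 fold change of -0.91 (SE 0.33, adjusted p = 0.144).

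This difference too varied with the libraries. The median of the ribosomal protein genes was -0.41 without bone 5, -0.30 without the 3 Lin-named libraries and -0.18 without the 5 low-Lepr libraries. In the last of these, 64 genes lay below 0 and 13 above. Erythroid markers summed to 0.584 to 10.5% of the counts in XY9274 and 4.17 to 38.3% in L002. Neutrophil markers, 18 of 18 in the matrix, summed to 1.31 to 11.4% and 0.0730 to 4.42%, and bone 5 was the highest. Their part in the difference was not tested.

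Whether the fibrous against bone difference itself differed between the series was tested by an interaction term. All 76 genes had interaction terms above 0, so that their fitted fold changes were less negative in XY9274. The median was 0.59, against -0.086 for all genes, of which 45.8% lay above 0. The quasi-likelihood test of edgeR called 0 of the 76 and 0% of all genes, and 0 of the 76 had an unadjusted p under 0.05, against 2.2% of all genes. DESeq2 called 0 of the 76 and 25 of all genes (0.192%). The smallest p-values were those of Rpl36 (0.90, SE 0.53), Rps21 (1.02, SE 0.63) and Rpl31 (0.77, SE 0.49), by edgeR, with adjusted p-values of 1.00. Without bone 5 the median was 0.20, and without the 5 low-Lepr libraries it turned to -0.29.

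Of the 4 comparisons made, that between the tokens in the L002 names gave the ribosomal protein genes their largest median difference. In the 3 Lin-named libraries 16 of the 76 genes tested were higher than in the 5 plus-named libraries and 0 were lower, with group as a covariate. Over all 13450 genes tested, 3.15% were called higher and 5% lower. The 16 comprised 11 small subunit genes, among them Rps12, Rps13, Rps2, Rps14, Rps18, Rps3, Rps15a and Rpsa, and 5 large subunit genes (Rpl34, Rplp0, Rpl27, Rpl26 and Rpl41). Their log2 fold changes (Lin minus plus) ran from 0.83 for Rps2 to 1.21 for Rps12. Over all 76 the median was 0.81, with 75 above 0, against -0.21 for all genes, of which 43.4% lay above 0. Small subunit genes had a median of 0.95 and large subunit genes 0.70.

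Rpl34 (ENSMUSG00000062006; chromosome 3, 130726831 to 130730398, minus strand) measured 491, 509.6 and 318 CPM in bone 3, bone 4 and fibrous 5, and 137, 249, 153, 167 and 196 CPM in bone 1, bone 2, fibrous 2, fibrous 3 and fibrous 4. All 3 Lin-named libraries lay above all 5 plus-named ones. Its log2 fold change was 1.15 (SE 0.22, adjusted p = 0.0292). In Rps12 (ENSMUSG00000061983; chromosome 10, 23785183 to 23787275, minus strand), a protein of the beak of the small subunit, the values were 330.3, 292 and 168 CPM against 78.8, 132, 85.8, 99.6 and 114 CPM in the same order. These also did not overlap, with a log2 fold change of 1.21 (SE 0.25, adjusted p = 0.0341). Rplp0 measured 2751, 3195 and 2182 CPM against 1149.96, 1667, 1151, 1369.7 and 1561 CPM, again without overlap (0.89, SE 0.20, adjusted p = 0.0377). Both bone libraries lay above fibrous 5 in each of these 3 genes.

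Libraries did not overlap for 44 of the 76 genes, all higher in the Lin-named ones, 22 of each subunit, against 11.9% of all genes. At an unadjusted p under 0.05, 70 of the 76 were higher, against 10.3% of all genes. DESeq2 called 63 higher, against 9.8% of all genes, and limma 21, against 2.7%. Among the groups of proteins, 5 of 20 genes of Diamond-Blackfan anaemia, 1 of 3 P stalk genes, 1 of 9 at the rim of the tunnel exit and 0 of 2 of the 5S particle passed the edgeR test. Rps6 had a log2 fold change of 0.64 (adjusted p = 0.109) and Rps19 0.95 (adjusted p = 0.0653), so neither passed. Rpl4 was the exception in direction, at -0.11 (SE 0.17, adjusted p = 0.722), with 1257, 1116 and 1281 CPM against 1204, 1612, 1042, 1149 and 1312 CPM in the same order and overlapping groups.

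Name tokens also link bone 4 with bone 2 and fibrous 5 with fibrous 2, a Lin-named and a plus-named library each, although the labels do not say that such a pair came from 1 sample. In bone 4, 75 of the 77 genes lay above bone 2, with a median log2 ratio of 0.75, against 45.2% and -0.068 for all genes tested. In fibrous 5, 76 of 77 lay above fibrous 2, with a median of 0.74, against 45.9% and -0.10. Small subunit genes had the larger median in both (0.89 against 0.62, and 0.78 against 0.63). These libraries are among those of the comparison above and add no replicate to it. With the 2 pairs as a replicate block, a fit of these 4 libraries chosen after seeing the data, edgeR called 0 of 76 ribosomal protein genes, and their median was 0.69.

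The number of calls rested on single libraries and on the scaling. It was 6 without bone 1, 1 without bone 2, 0 without bone 3, 0 without bone 4, 0 without fibrous 2, 0 without fibrous 3, 12 without fibrous 4 and 2 without fibrous 5, while the median stayed between 0.57 and 1.04. With library totals in place of TMM, 0 were called and the median was 0.32, but the median of all genes moved with it, to -0.69. A change of scaling shifts all genes nearly alike. The median of the set minus that of all genes could therefore hardly change, and it was 1.02 with TMM and 1.01 with library totals. Its steadiness is no check on the calls. Of all genes tested, 424 were called higher and 673 lower with TMM, and 109 higher and 946 lower with library totals.

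Markers of some other cells differed between these names. Erythroid markers, 17 of 20 in the matrix and none at 0 in all libraries, summed to 23.2 to 38.3% of the counts in the Lin-named and 4.17 to 10.1% in the plus-named libraries. Marrow stromal markers, 15 of 15 in the matrix, summed to 0.0158 to 0.0240% against 0.147 to 1.63%, with Ebf3 and Il7 at 0 in all 3 Lin-named libraries. Osteoblast markers, 11 of 11, summed to 0.102 to 0.705% against 2.94 to 9.29%. Chondrocyte markers, 12 of 12, summed to 0.0334 to 0.211% against 1.05 to 5.27%. Neutrophil markers overlapped, at 1.07 to 2.60% against 0.121 to 4.42%. Their part in the ribosomal protein difference was not tested. With haemoglobin genes removed from the counts, 15 of the 76 genes were called and the median was 0.81. That fit kept all other genes of erythroid cells, so it does not test their part either.

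Dividing each gene's counts by the summed counts of all 77 removes the common shift and shows the balance among them. Between the name series, 9 genes had shares that were higher in all 4 XY9274 libraries than in all 9 L002 libraries (Rpl11, Rpl19, Rpl23a, Rpl35, Rpl37a, Rpl5, Rps25, Rps29 and Rps6) and 0 were lower. Of all genes tested, 6.75% stood higher without overlap on this scale and 0.391% lower. The scaling itself moved the median log2 fold change of all genes to 0.64, against 0.052 for the ribosomal protein genes. These percentages, and those of calls on this scale, are therefore no chance rate for the ribosomal protein genes. Rps25 (ENSMUSG00000009927; chromosome 9, 44407139 to 44410427, plus strand), which ribosomes need for initiation at several viral internal entry sites, held 1.38, 1.13, 1.44 and 1.33% in bone 5, bone 6, fibrous 6 and fibrous 7, against 0.770 to 0.918% in L002. Rpl37a (ENSMUSG00000046330; chromosome 1, 72711290 to 72713813, plus strand), a zinc-binding protein of the large subunit, held 1.48, 1.16, 1.31 and 1.33%, against 0.715 to 0.850%. A gap separates the series in both genes, and within XY9274 bone 6 was the lowest.

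With the summed counts as the library size, edgeR called 2 of the 76 genes, Rpl37a (log2 fold change 0.74, SE 0.13, adjusted p = 0.0164) and Rps25 (log2 fold change 0.68, SE 0.13, adjusted p = 0.0207), both higher in XY9274, against 4.11% of all genes called higher and 0.158% lower. Rps29 (log2 fold change 0.40, SE 0.13, adjusted p = 0.0938) and Rpl11 (log2 fold change 0.40, SE 0.15, adjusted p = 0.120) did not pass. On the TMM scale Rps25 and Rpl37a lay close to 0 (-0.023 and 0.027), while the median of the set was -0.62.

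**Figure D3:**
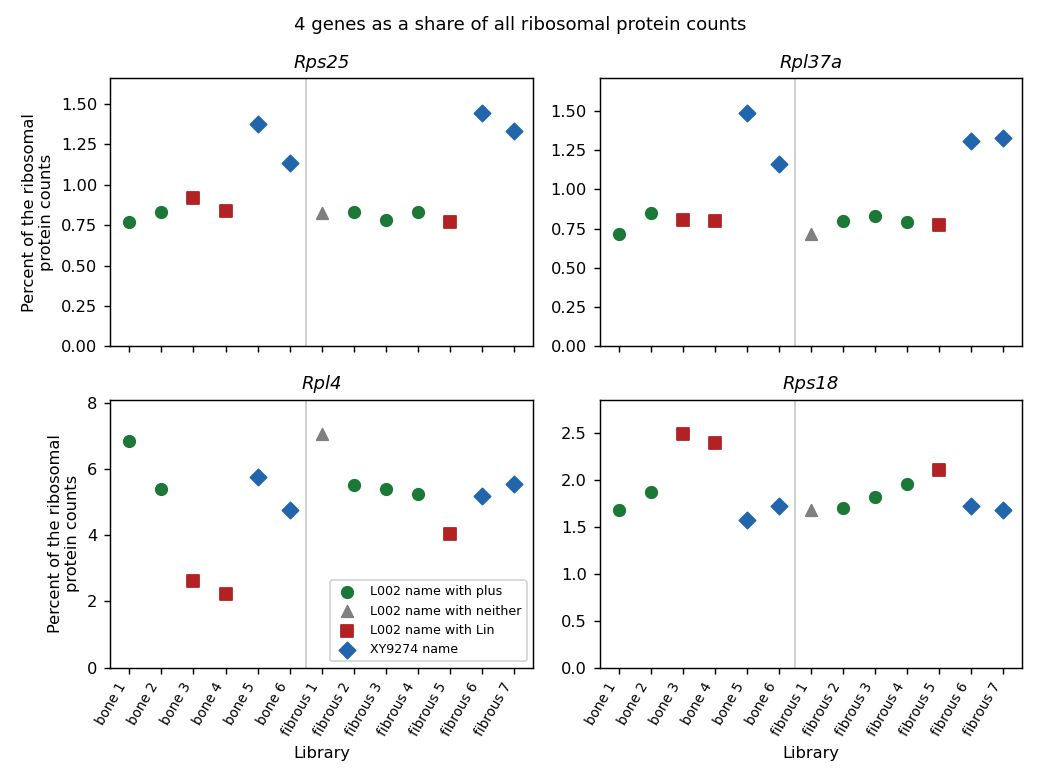
Each panel plots the percent of the summed ribosomal protein counts held by Rps25, Rpl37a, Rpl4 or Rps18 in each of the 13 libraries. Rps25 and Rpl37a lie highest in the XY9274 libraries bone 5, bone 6, fibrous 6 and fibrous 7, and Rpl4 lies lowest in the Lin-named libraries bone 3 and bone 4.

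Between Lin-named and plus-named libraries the shares, which sum to a fixed total, were higher without overlap for 14 genes (7 of each subunit). They were lower for 19 (6 small and 13 large). On this scale 1.89% of all genes tested stood higher and 28.1% lower. The scaling itself moved the median log2 fold change of all genes to -1.07, against -0.00927 for the ribosomal protein genes. These percentages, and those of calls on this scale, are therefore no chance rate for the ribosomal protein genes. Rpl4 held 2.62, 2.23 and 4.02% in bone 3, bone 4 and fibrous 5, against 6.85, 5.41, 5.50, 5.40 and 5.25% in the plus-named libraries. Every Lin-named value lay below every plus-named one. With the summed counts as library size it was called lower (log2 fold change -0.93, SE 0.22, adjusted p = 0.0433), as were 9.93% of all genes (0.409% were called higher), and it was the only call among the 76. Rps18, at the head of the small subunit, held 2.48, 2.39 and 2.10% against 1.68, 1.87, 1.70, 1.82 and 1.96%, higher without overlap but not past the test's threshold (log2 fold change 0.35, SE 0.13, adjusted p = 0.112). Rpl21, Rpl29, Rpl6 and Rps4x were among the 19 lower, and Rps12, Rps14, Rpl32 and Rpl34 among the 14 higher.

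Other ribosomal proteins lay outside the naming rule. Fau encodes Rps30 as a fusion with a ubiquitin-like protein, and Rack1 is a scaffold bound to the small subunit. In fibrous against bone their log2 fold changes were -0.55 and -0.46, and neither passed the edgeR test. In the Lin-named libraries Rack1 was higher (log2 fold change 0.96, SE 0.20, adjusted p = 0.0353), while Fau (log2 fold change 0.91, SE 0.23, adjusted p = 0.0549) did not pass. Of 11 paralogs of ribosomal proteins listed, 8 were tested in fibrous against bone and XY9274 against L002, with 0 called in either, and 7 in Lin against plus. There Rps27l was higher (log2 fold change 1.04, SE 0.24, adjusted p = 0.0416) and Rps4l lower (log2 fold change -1.45, SE 0.36, adjusted p = 0.0481). Rpl39l, the testis-enriched copy of Rpl39, had -2.16 (adjusted p = 0.164).

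Other genes of translation were described by list. In fibrous against bone 0 genes passed the edgeR test in each of the 7 lists. Medians there were -0.18 over 19 elongation factors and other messenger RNAs with the tract, 0.054 over 29 initiation factors, 0.16 over 49 assembly factors, 0.024 over 8 snoRNA host genes and 0.16 over 17 regulators, against -0.49 for the ribosomal protein genes. At an unadjusted p under 0.05, 1 of these genes was higher, an assembly factor, and 0 were lower, against 374 and 262 of all 13294 genes. In XY9274 against L002, the edgeR test called 3 genes of these lists, all higher, and 251 of all 13294 genes higher. Of 49 assembly factors 2 were called, Nol6 (log2 fold change 1.32, SE 0.25, adjusted p = 0.0196) and Utp20 (log2 fold change 4.38, SE 0.91, adjusted p = 0.0295). Of 29 initiation factors 1 was called, Eif4g2 (log2 fold change 1.02, SE 0.19, adjusted p = 0.0158).

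In Lin against plus names, where 3.15% of all genes were called higher and 5% lower, 6 of 29 initiation factors were higher (Eif4a1, Eif5, Eif1, Eif2s1, Eif3i and Eif5a) and 2 lower (Eif5b and Eif3a). Of 49 assembly factors, 1 was higher (Nhp2) and 2 lower (Ltv1 and Riok1), with a median of -0.33. Among 17 regulators, Rheb, which activates mTOR, and Cnbp were higher, and Rps6kb1, an S6 kinase, and Ssb were lower. Tpt1, another abundant messenger RNA with the tract, was the only call among 19 of its list (log2 fold change 1.00, SE 0.19, adjusted p = 0.0278). None of the 8 snoRNA host genes, such as Gas5, passed, and their median was -0.010. The medians of the 7 lists lay between -0.53 and 0.91, against 0.81 for the ribosomal protein genes.

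Counting of these genes is uncertain where sequence is shared, since mammalian genomes hold many processed copies of them. Of the 50-base words in each transcript, a median of 62.2% also occurred in another gene of GENCODE release M21, and 76 of the 77 genes had such words. In Rps27, 98.6% of words were shared, mainly with Rps27rt, and in Rpl35, Rpl5 and Rpl10 95.1, 93.8 and 92.1%. Words were matched on either strand, so genes overlapping at the same place count as well as copies elsewhere. Exons on the opposite strand covered 68.3% of the exons of Rpl35, whose main match was Wdr38 (59.0%), and 46.6% of those of Rpl5. The median share of the summed counts was 1.86% over the 8 genes with up to 25% of words shared, 0.985% over 21 with 25 to 50%, 1.08% over 23 with 50 to 75%, 0.753% over 21 with 75 to 90% and 0.798% over the 4 above 90%. The 236 pseudogene rows with -ps in their symbol together held 0.862 to 1.16 counts per 100 counts of the 77 genes. Processed copies under other symbols, such as Gm8730, the main match of Rplp0, are not in that sum. The 236 rows held 0.900 ± 0.0423 in XY9274 (n = 4) and 1.09 ± 0.0412 in L002 (n = 9), with no overlap.

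Overlapping annotation on the same strand marked 3 of the 4 genes with the lowest shares. Exons of another gene on the same strand covered 71.5% of the exons of Rpl24 (Gm28037), 66.7% of Rps10 (RPS10-NUDT3) and 59.3% of Rpl13a (Gm45713). In Rpl19 it was 10.7%, and it was 0 in 72 genes. None of the 3 overlapping genes was among the genes of the count matrix. The strand setting of the counting is not given. On either strand, exons of another gene covered 55.4% of the exons of Rpl23a, the other of the 4. They also covered 68.3% of those of Rpl35, whose mean share was 0.584%. Rpl24 (ENSMUSG00000098274; chromosome 16, 55966275 to 55971435, plus strand) lay between 0.0781 and 0.702 CPM and Rps10 between 0.355 and 1.57 CPM. Whether reads of these genes were left out in counting was not tested, so their low values are not read as low expression.

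**Figure D4:**
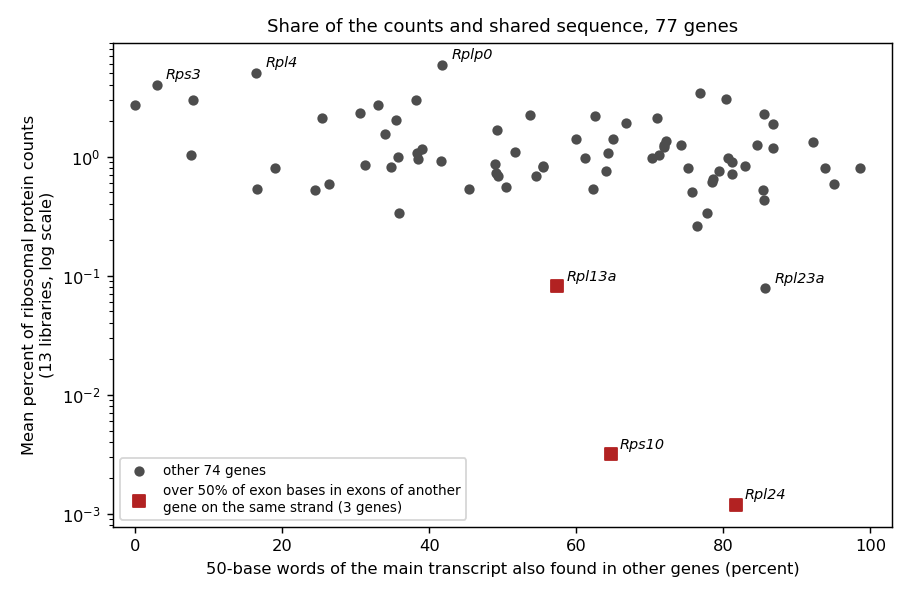
The percent of each gene's 50-base words that also occur in another gene is plotted on the horizontal axis, and its mean percent of the summed ribosomal protein counts on a log scale on the vertical axis. Red squares mark Rpl24, Rps10 and Rpl13a, whose exons overlap another gene on the same strand by 71.5, 66.7 and 59.3%. Together with Rpl23a they are the 4 lowest points.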

How the data were processed

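RNA of sorted mouse cells was measured in 13 libraries, 6 from bone and 7 from fibrous tissue. Per the labels' protocols, polyA RNA was extracted with an RNeasy Plus Micro kit, made into Illumina TruSeq libraries and sequenced on a NovaSeq. The authors deposited raw counts per gene in a single matrix of 23211 Ensembl mouse genes, each with a symbol. The submitters' processing notes name edgeR, without a version, and the builds mm10 and hg38. The aligner, the counter, the annotation, the strand setting and the treatment of reads matching several genes are details not given in the sources used here. Reads from near-identical copies could therefore be split or dropped in these counts.

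Genes were tested with edgeR 4.0.16 in R 4.3.3 (TMM factors, filterByExpr, robust quasi-likelihood F test). Terms for group and name series were fitted over all 13 libraries. Lin and plus names were compared in 8 L002 libraries with group as a term. Benjamini-Hochberg adjustment ran over all genes tested, 13294 or 13450, with a threshold of 0.05. The SE was obtained from the fold change and the square root of F. The code was tested on simulated counts. DESeq2 1.42.0, limma 3.58.1 (voom with quality weights), other scalings, including the summed counts of the 77 genes as library size, other filters and the removal of single libraries were alternatives. Lengths and overlaps came from GENCODE M21 (mm10), and promoter windows from RefSeq.

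The members, lists and tests were chosen with earlier results of these data known. The rule for naming took 17 genes with well-known roles, the 3 smallest p-values in each direction of each comparison, the 3 highest and lowest mean shares and the 3 largest and smallest SDs of log2 share. It also took up to 2 genes of each pathway list by p in fibrous against bone and in XY9274 against L002, and all fusion and paralog genes. Genes named beyond it, among them Rps25, Rps18, Rpl29 and the list genes of Lin against plus, were chosen after their values were seen. Some genes are not reported here by name. Sequences from mouse chromosome 18 and 20 genes with no RefSeq window in the table used are not shown.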

Additional observations from a re-analysis of the deposited data

Results flagged for a closer look

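The value of each named gene was compared with the others of its group by Dixon's criterion, which asks whether the highest or the lowest library stands apart from its nearest neighbour by more than a set part of the group's range. Of 144 groups of values examined, 5 met it. Chance alone would give about 1 in 20 groups if the groups were independent and chosen beforehand. Here each gene enters both as CPM and as a share, and genes were partly named by their values. The count of 5 can therefore not be set against chance.

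In the Lin-named library fibrous 5, 3 genes stood above the other 6 fibrous libraries. Rpl34 measured 318 CPM there, against 196 CPM in the next library. Rps12 measured 168 against 114 CPM, and Rps13 268 against 179 CPM. Fibrous 5 is also the fibrous library with the largest haemoglobin share, 19.98% of counts.

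As a share of the summed ribosomal protein counts, Rpl24 reached 0.00335% in bone 5, against 0.00140% in the next bone library. Rpl24 lay near the lower limit of counting and did not pass the filter on low counts, so this gap rests on few reads. Rpl38, whose loss alters the axial skeleton in Tail-short mice, held 0.761% in bone 6, the lowest of the bone libraries, against 0.847% in the next.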

How the results depend on the processing

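In fibrous against bone no setting run called a ribosomal protein gene, and their median minus that of all genes was -0.52 as reported, -0.16 without the Lin-named and -0.28 without the low-Lepr libraries. DESeq2 called 169 genes there and 25 in the interaction, where 1 gene was called without the low-Lepr libraries. In XY9274 against L002, 287 genes were called as reported, 170 with upper quartile factors, 477 with a minimum of 10 CPM in 6 libraries, 568 with the summed ribosomal protein counts as library size, 1982 by DESeq2, 2946 by limma and 32 without the low-Lepr libraries. Calls among the ribosomal protein genes there went from 0 to 2 with their sum as library size, 14 by DESeq2 and 15 by limma. In Lin against plus, 424 genes were called higher and 673 lower as reported, and 3456 were called by DESeq2 and 629 by limma. Calls among the ribosomal protein genes went from 16 to 0 with library totals, 1 with their sum as library size, 63 by DESeq2 and 3 without a filter. Their sum as library size gave 55 genes higher and 1336 lower. The Lin-named share of counts went from 3.16% to 4.42% without haemoglobin and 4.54% without haemoglobin and neutrophil genes. Rplp0 went from 6.21 to 2.79 times the median gene by coding length.

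Leaving out single libraries gave 138 to 992 genes and 0 to 12 ribosomal protein genes in Lin against plus, and 87 to 470 genes in XY9274 against L002. It gave 0 ribosomal protein genes in the other 3 comparisons, and 0 genes in fibrous against bone and in the interaction. Mean shares of counts ran from 2.45 to 2.88% in bone, 2.17 to 2.34% in fibrous, 2.98 to 3.31% in Lin-named and 2.25 to 2.54% in plus-named libraries. Signs turned for Rpl4 in fibrous against bone (-0.13 to 0.021) and in Lin against plus (-0.25 to 0.026), and for Rpl37a (-0.063 to 0.19) and Rps25 (-0.14 to 0.17) in XY9274 against L002.

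The summed counts as library size centre these genes near 0 by construction, and part of the turns of sign came there. The medians were 0.052 in XY9274 against L002 and -0.00927 in Lin against plus. On that scale the log2 fold changes in fibrous against bone were 0.25 for Rpl4, 0.15 for Rpl11, 0.086 for Rpl5, 0.00464 for Rps25 and 0.041 for Rps6. In XY9274 against L002 they were 0.40 for Rpl11, 0.13 for Rpl4, 0.34 for Rpl5, 0.68 for Rps25 and 0.18 for Rps6. In Lin against plus they were -0.20 for Rpl11, -0.00805 for Rpl37a, -0.21 for Rpl5 and -0.17 for Rps6.

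Of the remaining turns of sign the cause was not tested. In fibrous against bone, Rpl4 was 0.10 with library totals, Rpl11 0.023 and Rps25 0.013 in XY9274 alone, and Rpl11 0.00344 without the Lin-named libraries. In XY9274 against L002 with library totals, Rpl11 was 0.043 and Rps25 0.31. Without the low-Lepr libraries, Rpl11 was 0.063, Rpl5 0.013 and Rps25 0.42, and the interaction median was -0.29. Rps25 in XY9274 against L002 was 0.33 without the Lin-named libraries, 0.20 by limma and 0.045 without a filter. Rpl37a was -0.026 by DESeq2, -0.026 with its size factors, -0.000359 with the 10 CPM minimum, -0.012 without haemoglobin genes and -0.18 with upper quartile factors.

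Leaving out the low-Lepr libraries, leaving the Lin-named libraries out of L002 alone, the summed counts as library size in Lin against plus, and the replicate block were choices made after seeing the data. Replicate numbers follow accession order and pair no libraries. A name token (4 or A) is shared by 1 Lin-named and 1 plus-named library in each group, and with these 2 pairs as a replicate block, which equals the group term in those 4 libraries, edgeR called 15 genes and 0 ribosomal protein genes, from fewer libraries. Rpl24 did not pass the filter on low counts in the fits as reported, and Rps10 lay under 2 CPM in each library.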
